A study of Mus musculus with 12 samples.

Results

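The genes described here are 7 transcription factors that act in the trophectoderm and the trophoblast, the outer layer of the blastocyst and the placental lineage that grows from it: Cdx2, Elf5, Tfap2c, Tfap2a, Tead4, Hand1 and Ascl2. They were chosen by symbol, as regulators of this lineage outside the GATA family, and make up 7 of the 32285 gene IDs counted in the series. Bulk RNA sequencing was done on 12 libraries of E14Tg2a.IV, a mouse embryonic stem (ES) cell line, in 6 groups of 2 libraries. S2/3DKO cells lack Smad2 and Smad3 by label, S4KO cells lack Smad4, and WT cells are the wild type. Each genotype was sampled as embryoid bodies (EBs) at day 4 (D4), after LIF, the cytokine that holds ES cells undifferentiated, had been taken away, and as undifferentiated ES cells at day 0 (D0). The labels give neither the alleles nor the number of clones behind a genotype, and do not say whether the 2 libraries of a group came from separate cultures, so the p-values measure only the spread between libraries, which may be technical.

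Nodal, activin and TGF-beta receptors act on transcription through Smad2 and Smad3, and Smad4 pairs with them as well as with the Smads that BMP receptors activate. In the mouse blastocyst, Tead4 with the Hippo-regulated coactivators acts upstream of Cdx2, and Cdx2, Elf5, Eomes and the AP-2 factors Tfap2c and Tfap2a then hold trophoblast stem cells in their state. Hand1 and Ascl2 act later, Hand1 in trophoblast giant cells and Ascl2 in the spongiotrophoblast, and ES cells normally keep most of this programme low. Several of the factors also work elsewhere: Cdx2 in the posterior embryo and gut, Hand1 in mesoderm and heart, Tfap2a in surface ectoderm and neural crest, and Tfap2c in germ cells and naive pluripotent cells.

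All 7 are protein-coding genes, placed here on build GRCm38 by GENCODE M21. The stem cell regulators are Cdx2 (ENSMUSG00000029646) at chr5:147300805-147307270 on the minus strand and Elf5 (ENSMUSG00000027186) at chr2:103411688-103450989 on the plus strand. The AP-2 genes are Tfap2c (ENSMUSG00000028640) at chr2:172549593-172558622 on the plus strand and Tfap2a (ENSMUSG00000021359) at chr13:40715302-40738376 on the minus strand, and the TEAD gene is Tead4 (ENSMUSG00000030353) at chr6:128224288-128300823 on the minus strand. The bHLH genes are Hand1 (ENSMUSG00000037335) at chr11:57828705-57832818 on the minus strand and Ascl2 (ENSMUSG00000009248) at chr7:142966829-142969264 on the minus strand.

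The promoters of 4 of the 7 factors are listed in the RefSeq windows used here (build GRCm38.p6, 250 bases before to 50 bases after a start site), and 1 window of each is shown because their transcripts differed in pattern: Elf5, Ascl2 and Tfap2a were higher in S2/3DKO than in WT EBs, and Cdx2 was not. Capitals mark matches on either strand to the AP-2 motif GCCNNNGGC, the TEAD motif GGAATG and the CDX motif TTTATG. The windows are chr2:103423818-103424117 on the plus strand for Elf5, chr7:142969215-142969514 on the minus strand for Ascl2, chr13:40734871-40735170 on the minus strand for Tfap2a and chr5:147307200-147307499 on the minus strand for Cdx2.
Elf5: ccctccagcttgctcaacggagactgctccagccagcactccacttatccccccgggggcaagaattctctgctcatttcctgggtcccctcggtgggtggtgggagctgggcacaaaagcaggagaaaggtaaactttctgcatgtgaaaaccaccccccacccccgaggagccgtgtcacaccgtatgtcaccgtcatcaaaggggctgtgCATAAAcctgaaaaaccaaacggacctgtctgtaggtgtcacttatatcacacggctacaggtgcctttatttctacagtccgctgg
Ascl2: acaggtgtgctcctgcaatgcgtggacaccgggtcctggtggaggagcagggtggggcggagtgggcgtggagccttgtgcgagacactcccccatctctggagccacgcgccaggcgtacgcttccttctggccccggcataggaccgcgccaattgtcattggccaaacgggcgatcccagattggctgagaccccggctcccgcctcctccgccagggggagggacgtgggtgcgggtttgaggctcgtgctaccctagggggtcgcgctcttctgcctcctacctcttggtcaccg
Tfap2a: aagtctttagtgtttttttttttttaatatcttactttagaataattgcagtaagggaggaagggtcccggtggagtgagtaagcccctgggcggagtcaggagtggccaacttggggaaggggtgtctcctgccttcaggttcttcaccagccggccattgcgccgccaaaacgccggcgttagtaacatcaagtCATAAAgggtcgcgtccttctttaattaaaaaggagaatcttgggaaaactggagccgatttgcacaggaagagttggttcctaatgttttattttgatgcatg
Cdx2: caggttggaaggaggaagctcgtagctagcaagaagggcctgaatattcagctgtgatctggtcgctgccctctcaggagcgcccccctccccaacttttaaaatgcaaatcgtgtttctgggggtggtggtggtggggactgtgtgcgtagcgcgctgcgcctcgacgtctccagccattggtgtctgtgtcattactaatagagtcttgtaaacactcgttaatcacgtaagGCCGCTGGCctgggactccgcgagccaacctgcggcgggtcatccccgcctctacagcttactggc
The Elf5 and the Tfap2a windows each hold 1 CDX match, the Cdx2 window holds 1 AP-2 match, and the Ascl2 window holds none of the 3 motifs. Elf5 and Tfap2a have a second window each that is not shown: that of Elf5, chr2:103411848-103412147, holds 1 TEAD match, no CDX match and 3 CpG dinucleotides, and that of Tfap2a holds none of the 3 motifs and 15 CpG dinucleotides. Of all 32851 RefSeq windows of this length, 16.6% held an AP-2 match, 14.7% a TEAD match and 11.9% a CDX match. Further motifs were searched and are not marked. The SMAD half-site CAGAC had 1 match each in the Elf5 and Cdx2 windows shown and no match in the Ascl2 and Tfap2a windows (49.6% of all windows). The GATA motif AGATAA had no match in the 4 windows (11.2% of all windows). The E-box CANNTG matched in those of Elf5, Ascl2 and Cdx2 (72.3% of all windows). The 4 windows shown held 10 (Elf5), 23 (Ascl2), 11 (Tfap2a) and 18 (Cdx2) CpG dinucleotides, where the median window held 7. These are matches of letters only and were not tested for binding.

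Library totals lay between 31566376 and 55806858 counts, and 18693 genes passed the filter on low counts and were tested. Levels are given as counts-per-million values (CPM) on TMM-scaled library sizes, differences as log2 fold changes with their standard error (SE) from edgeR's quasi-likelihood test over all 12 libraries, and p-values adjusted by Benjamini-Hochberg over all 18693 genes, with a threshold of 0.05. All 7 factors were tested, but Elf5 was above the filter's 0.198 CPM only in the 4 S2/3DKO libraries, and Cdx2 only in those and the 2 WT EB libraries. Transcripts of the deleted genes remained, and none was called lower. Smad2 averaged 47.5 CPM in S2/3DKO EBs and 83.0 CPM in WT EBs, and 42.8 CPM in S2/3DKO ES cells and 34.1 CPM in WT ES cells. Smad3 averaged 30.04 CPM in S2/3DKO EBs and 48.97 CPM in WT EBs, and 16.4 CPM in S2/3DKO ES cells and 10.6 CPM in WT ES cells. Smad4 averaged 133 CPM in S4KO EBs and 130 CPM in WT EBs, and was higher in S4KO ES cells, at 89.97 CPM, than in WT ES cells, at 50.9 CPM (edgeR, adjusted p = 0.0187). The knockout lines also stood apart in genes that were looked up after the first results. Hprt, which E14Tg2a lacks, was at 169 to 212 CPM in the S4KO libraries and at most 0.724 CPM in the others. The Y-linked Eif2s3y was at 0 CPM in 3 S2/3DKO libraries and at 1.39 CPM in the fourth, with 31.4 to 85.7 CPM in the other groups, and Xist was at 33.2 to 115 CPM in S2/3DKO and at most 9.64 CPM elsewhere. Mid1 was at 0.248 to 1.13 CPM in 3 S4KO libraries and at 35.1 CPM in the fourth, S4KO D4 replicate 2. In the S2/3DKO and WT libraries Mid1 was at 207 to 732 CPM. Genotype and cell line of origin therefore cannot be told apart in any comparison between genotypes. Of the undifferentiated libraries, S2/3DKO replicate 2 had 6.74% mitochondrial counts against 1.87% to 3.93% in all others, and the WT pair had 13.9% and 10.2% ribosomal protein counts against 4.75% to 7.33% in all others.

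In EBs, S2/3DKO cells held far more transcript of 6 of the 7 trophoblast factors than WT cells. Hand1, Elf5 and Ascl2 differed most, Tfap2c, Tfap2a and Tead4 by less, and Cdx2 did not pass the test. The 6 that passed were all higher, against a background of 7.21% of all genes tested that were higher in this comparison. Of these 6, Elf5 passed the low-count filter only through the S2/3DKO libraries, so its call adds no support to the count. The median log2 fold change of the 7 was 2.74, against -0.03 over all genes tested. For these 6, both S2/3DKO EB libraries were above both WT ones, as they were for 29.8% of all genes tested. Leaving out 1 library at a time left 5 or 6 of them past the threshold. In bulk RNA, more cells of one type and more transcript per cell cannot be told apart, here or in the comparisons that follow.

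**Figure D1:**
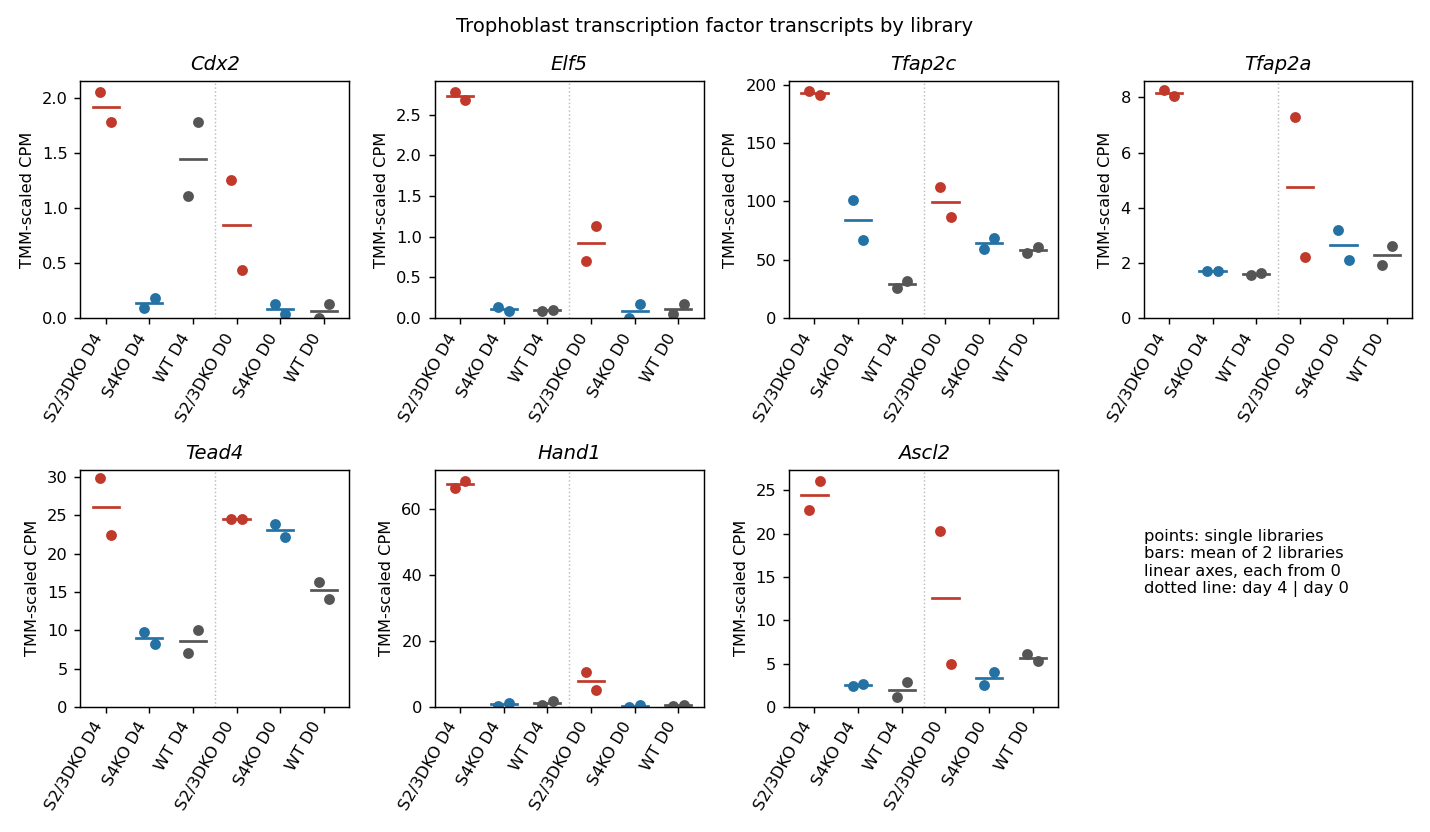
TMM-scaled CPM (linear axes from 0) of the 7 factors in each of the 12 libraries, with the EB groups left of the dotted line and the undifferentiated groups right of it. Points are libraries and bars are the means of 2 libraries. Both S2/3DKO D4 points stood above both WT D4 points for 6 of the 7 factors, the exception being Cdx2, of which 1 S2/3DKO D4 and 1 WT D4 library met at 1.78 CPM.

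Cdx2, the homeobox factor that specifies trophectoderm, was at 2.05 and 1.78 CPM in S2/3DKO EBs, at 0.0944 and 0.187 CPM in S4KO EBs and at 1.11 and 1.78 CPM in WT EBs. The S2/3DKO and WT EBs overlapped, while both S4KO EBs were lower than either. The S2/3DKO minus WT difference was 0.41 ± 0.74 (log2, SE, adjusted p = 0.761), with a 95% interval from -1.21 to 2.02. No difference was detected, with 60 to 124 counts per library. The S4KO minus WT difference in EBs, -3.40 ± 0.89 (log2), did not pass the test (adjusted p = 0.0857). DESeq2, edgeR without the low-count filter and 2 further alternatives called this difference.

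Before differentiation Cdx2 was at 1.25 and 0.434 CPM in S2/3DKO cells, at 0.124 and 0.0396 CPM in S4KO cells and at 0 and 0.130 CPM in WT cells. Both S2/3DKO libraries were above all 4 of the others, and the smallest of those 4 held no read of Cdx2. Cdx2 was higher in S2/3DKO than in WT cells by 3.60 ± 0.96 (log2, adjusted p = 0.0168). The call was lost without WT D0 replicate 1 (adjusted p = 0.108), the library with no Cdx2 count, and without S2/3DKO D0 replicate 1. Without WT D0 replicate 2 the WT group held no Cdx2 count, and no fold is given. Over the 4 days, Cdx2 rose in WT by 4.38 ± 0.96 on the log2 scale (adjusted p = 0.00428), the only factor of the 7 called higher there. In S2/3DKO the D4 minus D0 difference was 1.18 ± 0.75 (adjusted p = 0.359), and in S4KO it was 0.71 ± 1.04 (adjusted p = 0.717).

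Elf5, the ETS factor of trophoblast stem cells whose promoter is methylated and silent in ES cells, was at 2.77 and 2.68 CPM in S2/3DKO EBs, at 0.132 and 0.0933 CPM in S4KO EBs and at 0.0922 and 0.0958 CPM in WT EBs. Among EBs the S2/3DKO libraries held 168 and 146 counts of it, against 3 to 7 counts in the S4KO and WT libraries. Elf5 was 28.3-fold higher in S2/3DKO than in WT EBs (log2 4.82 ± 0.92, adjusted p = 0.00607). In undifferentiated cells the S2/3DKO libraries were again the highest. There Elf5 was at 0.704 and 1.14 CPM in S2/3DKO, at 0 and 0.178 CPM in S4KO and at 0.0479 and 0.173 CPM in WT. The S2/3DKO minus WT difference at D0 was 3.01 ± 0.90 (log2, adjusted p = 0.0268), and it lost its call without either WT D0 library or without S2/3DKO D0 replicate 2 (adjusted p up to 0.185).

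Tfap2c, which encodes AP-2 gamma, was the most abundant of the 7 factors per transcript length. It was at 195 and 191 CPM in S2/3DKO EBs, at 101 and 66.6 CPM in S4KO EBs and at 26.0 and 31.8 CPM in WT EBs. The 3 genotypes did not overlap, with S2/3DKO on top and S4KO between. Tfap2c was 6.66-fold higher in S2/3DKO than in WT EBs (log2 2.74 ± 0.25, adjusted p = 0.000107), and 2.90-fold higher in S4KO than in WT EBs (log2 1.53 ± 0.24, adjusted p = 0.0110). The S4KO call was lost without S4KO D4 replicate 1 or WT D4 replicate 1 (adjusted p up to 0.102). At D0 Tfap2c was at 112 and 86.9 CPM in S2/3DKO, at 59.2 and 68.9 CPM in S4KO and at 55.4 and 60.7 CPM in WT. S4KO and WT cells overlapped there, and S2/3DKO cells were higher than WT cells by 0.78 ± 0.24 (log2, adjusted p = 0.0299). That D0 call was lost without any 1 of 5 libraries, the WT D0 pair, S2/3DKO D0 replicate 1 and the S2/3DKO D4 pair (adjusted p up to 0.177).

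Tfap2a, which encodes AP-2 alpha, was at 8.26 and 8.05 CPM in S2/3DKO EBs, at 1.72 and 1.71 CPM in S4KO EBs and at 1.57 and 1.65 CPM in WT EBs. The S2/3DKO EBs were clear of the others, and Tfap2a was 5.07-fold higher there than in WT EBs (log2 2.34 ± 0.50, adjusted p = 0.0101). Without WT D4 replicate 1 the adjusted p was 0.0569. In undifferentiated cells the 2 S2/3DKO libraries lay apart from each other, with 7.29 and 2.23 CPM, and overlapped both other genotypes. Tfap2a was at 3.21 and 2.12 CPM in S4KO cells and at 1.94 and 2.62 CPM in WT cells. The S2/3DKO minus WT difference at D0, 1.06 ± 0.48 (log2), did not pass the test (adjusted p = 0.115), and it was -0.02 without S2/3DKO D0 replicate 1. Without S2/3DKO D0 replicate 2, the library with the high share of mitochondrial counts, Tfap2a was called higher (log2 1.70, adjusted p = 0.0199). Tfap2a overlaps 3 annotated antisense genes, which had at most 47 counts in a library, and whether the counting used strand is not given in the sources used here. Among the genes in the deposited counts, none overlaps any of the other 6 factors.

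Tead4, the DNA-binding partner of the Hippo coactivators Yap1 and Wwtr1, was at 29.8 and 22.4 CPM in S2/3DKO EBs, at 9.76 and 8.15 CPM in S4KO EBs and at 7.06 and 10.001 CPM in WT EBs. S4KO and WT EBs overlapped, and both S2/3DKO EBs were higher. Tead4 was 3.06-fold higher in S2/3DKO than in WT EBs (log2 1.61 ± 0.26, adjusted p = 0.00260). At D0 the genotypes lay closer, with 24.5 and 24.5 CPM in S2/3DKO, 23.9 and 22.1 CPM in S4KO and 16.3 and 14.1 CPM in WT. Neither knockout passed the test against WT there: the log2 difference was 0.69 ± 0.26 in S2/3DKO (adjusted p = 0.0629) and 0.60 ± 0.26 in S4KO (adjusted p = 0.124). Several alternatives called the S2/3DKO difference, among them DESeq2 and the length and GC correction (log2 1.10, adjusted p = 0.0114).

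Hand1, a bHLH factor needed for giant cell differentiation, showed the widest difference of the 7. It was at 66.3 and 68.3 CPM in S2/3DKO EBs, at 0.396 and 1.15 CPM in S4KO EBs and at 0.682 and 1.86 CPM in WT EBs. Hand1 was 53.0-fold higher in S2/3DKO than in WT EBs (log2 5.73 ± 0.97, adjusted p = 0.00322), and S4KO and WT EBs overlapped. S2/3DKO cells were already apart before differentiation, with 10.4 and 5.08 CPM, against 0 and 0.694 CPM in S4KO cells and 0.360 and 0.519 CPM in WT cells. The D0 difference between S2/3DKO and WT was 4.13 ± 0.96 (log2, adjusted p = 0.00930), lost without either WT D0 library (adjusted p up to 0.0941).

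Ascl2, an imprinted bHLH factor of the spongiotrophoblast, was at 22.7 and 26.1 CPM in S2/3DKO EBs, at 2.40 and 2.61 CPM in S4KO EBs and at 1.12 and 2.84 CPM in WT EBs. S4KO and WT EBs overlapped, and Ascl2 was 12.3-fold higher in S2/3DKO than in WT EBs (log2 3.62 ± 0.63, adjusted p = 0.00370). In undifferentiated cells, as for Tfap2a, a single S2/3DKO library was high: Ascl2 was at 20.3 and 4.90 CPM in S2/3DKO, at 2.57 and 4.04 CPM in S4KO and at 6.14 and 5.23 CPM in WT. The D0 difference between S2/3DKO and WT, 1.15 ± 0.57 (log2), did not pass (adjusted p = 0.149) and was -0.21 without S2/3DKO D0 replicate 1. Ascl2 was called higher without S2/3DKO D0 replicate 2 (log2 1.85, adjusted p = 0.0266) and with a correction for length and GC content (log2 1.87, adjusted p = 0.0123).

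In undifferentiated cells, then, 4 of the 7 factors were higher in S2/3DKO than in WT: Cdx2, Elf5, Tfap2c and Hand1. Of all genes tested, 16.7% were higher in this comparison, and the median log2 fold change was 1.15 over the 7 factors and 0.02 over all genes. Elf5 passed the low-count filter only through the S2/3DKO libraries, and Cdx2 only through those and the WT EBs. Their calls therefore add no support to the count of 4. The 4 calls rested on single libraries: 0 remained without WT D0 replicate 1, 1 without WT D0 replicate 2 and 2 without S2/3DKO D0 replicate 1. For all genes the number called in either direction fell to 921 without WT D0 replicate 1, against 5799 with it. Pou5f1, a core pluripotency gene, was lower in both S2/3DKO D0 libraries, at 935 and 719 CPM, against 2164 and 2170 CPM in WT D0. Of 11 pluripotency genes, 2 were called lower in S2/3DKO D0, Pou5f1 and Utf1, and 1 was called higher, Tfcp2l1. Of 12 extraembryonic endoderm genes, 9 were higher in S2/3DKO D0 than in WT D0. The 12 summed to 339 to 397 CPM in S2/3DKO D0 and 78.9 to 88.2 CPM in WT D0. In S4KO D0, 6 of the 12 were higher than in WT D0, with sums of 141 to 157 CPM. In that S4KO comparison 19.6% of all genes were called in either direction. The part that these differences play in the levels of the 7 factors was not tested.

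The S4KO libraries showed another pattern. In undifferentiated S4KO cells 0 of the 7 factors passed the edgeR test against WT, where 19.6% of all genes were called in either direction. At an unadjusted p under 0.05 only Tead4 would pass, and DESeq2 called 0. In S4KO EBs, Tfap2c was higher than in WT, and it was the only factor called, where 0.679% of all genes were higher and 1.73% changed in either direction. Comparing the knockouts with each other, all 7 factors were lower in S4KO than in S2/3DKO EBs, where 6.45% of all genes were lower. Those log2 fold changes ran from -6.49 ± 1.02 for Hand1 (adjusted p = 0.00276) to -1.20 ± 0.24 for Tfap2c (adjusted p = 0.00903), and the value of Cdx2 was -3.80 ± 0.90 (adjusted p = 0.0194). No S4KO library was above the filter's minimum for Elf5 or Cdx2, so their calls add no support to the count of 7. The count fell to 3 without S4KO D4 replicate 2, the shallowest library, and to 4 without either S2/3DKO EB library. Before differentiation only Hand1 passed in this comparison (log2 -4.46 ± 0.97, adjusted p = 0.0241), where 3.38% of all genes were lower in S4KO.

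**Figure D2:**
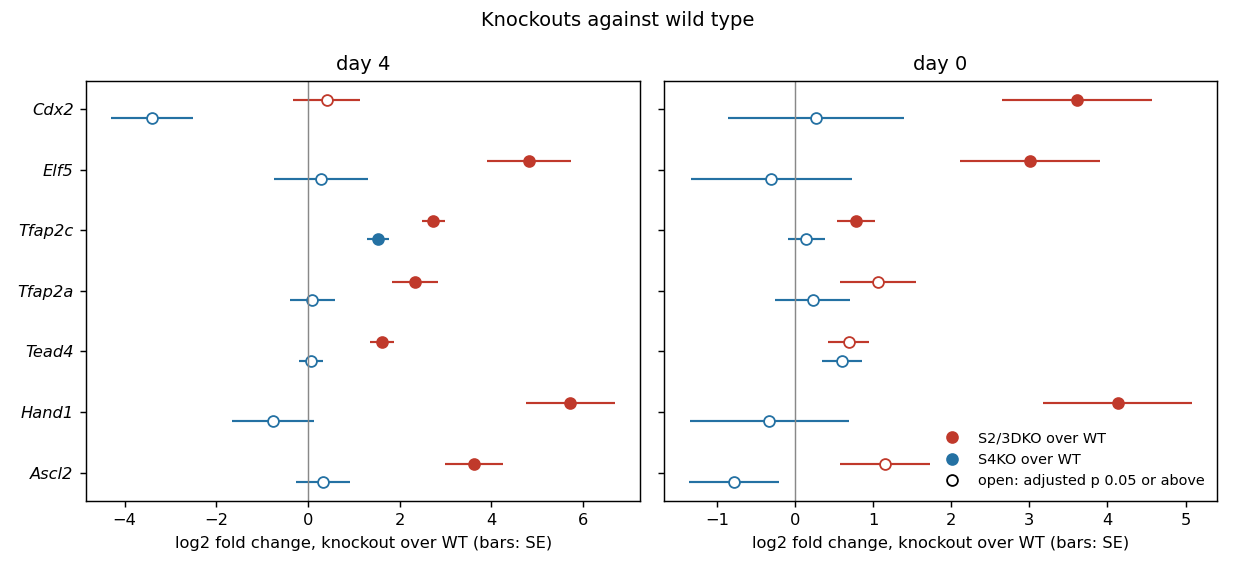
log2 fold change of each knockout over WT for the 7 factors at day 4 (left) and day 0 (right), from edgeR, with bars of 1 SE. Filled points passed an adjusted p of 0.05. At day 4 all S2/3DKO points except Cdx2 (0.41) are filled and lie between 1.61 and 5.73, and the only filled S4KO point is Tfap2c (1.53).

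The question of the time course is how each factor changed between ES cells and EBs within a genotype. In WT, Cdx2 rose, Tfap2c fell by 1.01 ± 0.24 on the log2 scale (adjusted p = 0.00658) and Tead4 fell by 0.84 ± 0.26 (adjusted p = 0.0229). The other 4 did not pass the edgeR test. Of these, Ascl2 was lower at D4 by 1.52 ± 0.59 (adjusted p = 0.0556), with no overlap between the 2 pairs. DESeq2 and RLE scaling were among the alternatives that called Ascl2. Hand1 was higher at D4 by 1.52 ± 0.93 (adjusted p = 0.205), without overlap, and was called only with the length and GC correction. Genes changed broadly in this comparison, 23.8% of all tested being higher and 19.9% lower at D4. The Tead4 call was lost without either WT D0 library, without WT D4 replicate 1 and with a correction for length and GC content (log2 -0.39, adjusted p = 0.266). In S2/3DKO, Tfap2c rose by 0.95 ± 0.24 on the log2 scale (adjusted p = 0.0385), where 3.57% of all genes were higher at D4. That call was lost without any 1 of the 4 S2/3DKO or the 2 WT D0 libraries (adjusted p up to 0.238). Hand1 lay just outside the threshold, 8.67-fold higher in S2/3DKO EBs than in S2/3DKO ES cells (log2 3.12 ± 0.85, adjusted p = 0.0502), with no overlap between the 2 pairs. Several alternatives, among them the replicate number as a block, called Hand1 as well. In S4KO, only Tead4 passed, and it fell by 1.36 ± 0.26 on the log2 scale (adjusted p = 0.0110), where 3.81% of all genes were lower at D4. Without S4KO D4 replicate 2 it did not pass (adjusted p = 0.109).

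Tfap2c went opposite ways in S2/3DKO and WT, and the difference between the 2 changes passed the test. The S2/3DKO change minus the WT change was 1.96 ± 0.34 (log2, adjusted p = 0.0166), and 1.83% of all genes were higher in that contrast. It was lost without either WT D0 library, either S2/3DKO EB library or WT D4 replicate 1 (adjusted p up to 0.0966). For Ascl2 the same contrast was 2.48 ± 0.82 (adjusted p = 0.0834), for Cdx2 -3.20 ± 1.21 (adjusted p = 0.113) and for Tead4 0.93 ± 0.36 (adjusted p = 0.122), none of which passed. The S4KO change minus the WT change called 0 of the 7 with edgeR, where 0.15% of all genes were called. Cdx2 and Tfap2c had an unadjusted p under 0.05 there, and DESeq2 called 1, Tfap2c, whose edgeR value was 1.39 ± 0.34 (adjusted p = 0.0973). The 2 contrasts share the 4 WT libraries.

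**Figure D3:**
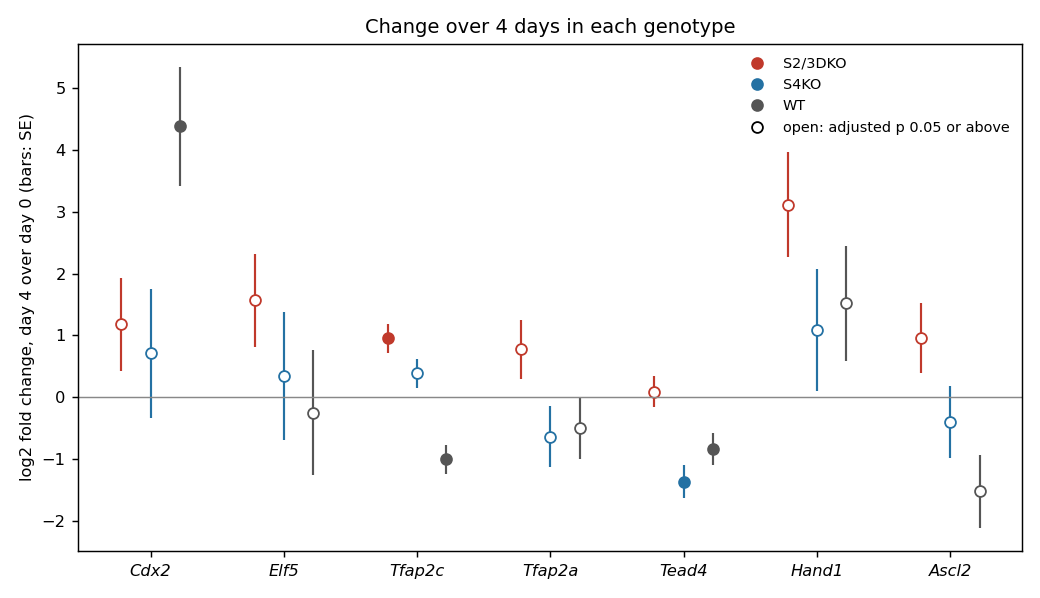
log2 fold change of D4 over D0 in S2/3DKO, S4KO and WT for the 7 factors, from edgeR, with bars of 1 SE. Filled points passed an adjusted p of 0.05: Tfap2c in S2/3DKO (0.95) and in WT (-1.01), Cdx2 in WT (4.38), and Tead4 in S4KO (-1.36) and in WT (-0.84).

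Levels of different factors can be set side by side only per transcript length, for which the deposited FPKM values serve (fragments per kilobase, scaled to the library). In S2/3DKO EBs the order of mean FPKM was Tfap2c at 73.1 ± 1.3 (SD, n = 2 here and below), Hand1 at 38.1 ± 0.91, Ascl2 at 16.4 ± 1.6, Tead4 at 10.2 ± 2.2, Tfap2a at 2.97 ± 0.36, Elf5 at 1.34 ± 0.0034 and Cdx2 at 0.907 ± 0.093. In WT EBs Tfap2c also came first, at 10.3 ± 1.4 FPKM, followed by Tead4 at 3.51 ± 0.23, Ascl2 at 1.24 ± 0.78, Hand1 at 0.666 ± 0.45, Cdx2 at 0.636 ± 0.22, Tfap2a at 0.523 ± 0.045 and Elf5 at 0.0312 ± 0.00048. Hand1 thus stood second of 7 in S2/3DKO EBs and among 4 factors of like level in WT EBs, where each of Ascl2, Hand1, Cdx2 and Tfap2a overlapped its neighbour in that order. Elf5 and Cdx2 were the lowest of the 7 in S2/3DKO EBs. Summed over the 7 factors, the CPM were 320 and 326 in S2/3DKO EBs, 80.5 and 115 in S4KO EBs and 37.7 and 50.003 in WT EBs. Tfap2c was the largest part of each sum, with means of 193 CPM in S2/3DKO EBs, 83.7 CPM in S4KO EBs and 28.9 CPM in WT EBs.

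**Figure D4:**
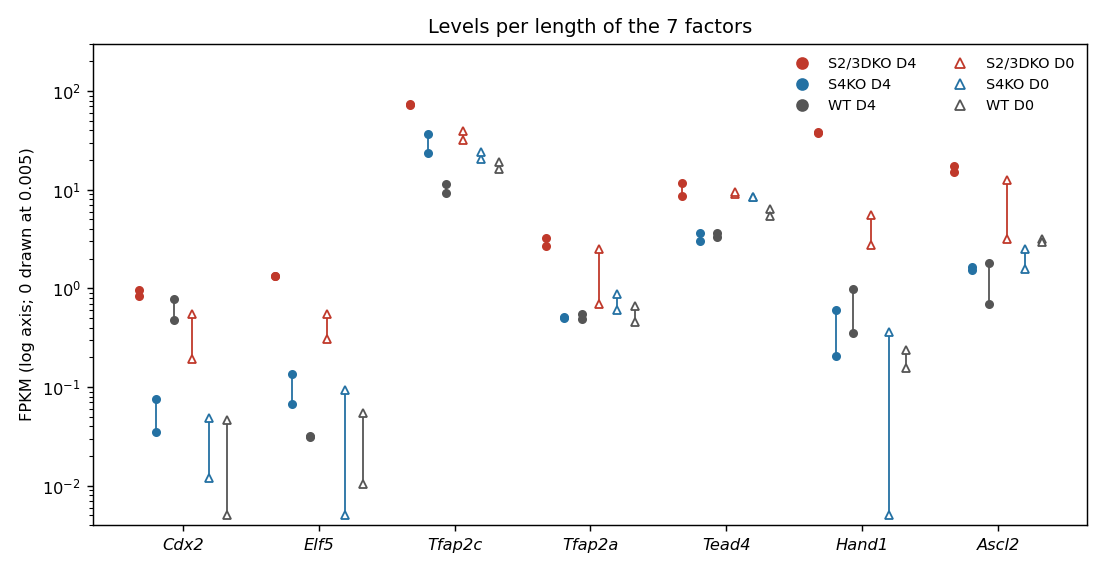
Deposited FPKM (log axis) of the 7 factors in each library, with 0 drawn at the bottom. Circles are EBs, triangles are undifferentiated cells, and a line joins the 2 libraries of a group. Tfap2c was the highest factor in each of the 6 groups, and the Hand1 values of S2/3DKO EBs (mean 38.1) lay far above all its other values.

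The order of the 6 groups differed from factor to factor. S2/3DKO EBs came first for all 7, with their nearest group overlapping them only for Cdx2 (WT EBs) and Tead4 (S2/3DKO ES cells). For Tfap2c, Tfap2a, Hand1, Elf5 and Ascl2 the next group was S2/3DKO ES cells. Below these, Hand1 levels in WT EBs, S4KO EBs, WT ES cells and S4KO ES cells formed a chain of overlapping neighbours between 0 and 1.86 CPM, and so did the 4 non-S2/3DKO groups of Elf5, between 0 and 0.178 CPM. Tead4 instead separated by day outside S2/3DKO, with both EB groups at 7.06 to 10.001 CPM and both ES groups at 14.1 to 23.9 CPM. Tfap2c was lowest in WT EBs, where it fell below every ES cell library.

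Across the 12 libraries, pairwise Pearson correlations of log2 CPM among the 7 factors ran from 0.08 for Cdx2 with Tead4 to 0.95 for Hand1 with Elf5. These describe 6 groups of 2 libraries and all have the S2/3DKO EBs at the high end. Among 11747 genes of at least 5 CPM in a group, the genes most like each factor were Trim35 for Cdx2 (r = 0.95), Phf19 for Tfap2c (r = 0.95), Sap130 for Tfap2a (r = 0.92), Ccdc184 for Hand1 (r = 0.98), Cmklr1 for Tead4 (r = 0.95), Gramd2 for Elf5 (r = 0.96) and Hcn2 for Ascl2 (r = 0.92). Elf3, an epithelial ETS factor and a paralog of Elf5, was among the 3 nearest genes of both Tfap2c (r = 0.94) and Ascl2 (r = 0.92), with 162 CPM in S2/3DKO EBs, 46.5 CPM in S4KO EBs and 26.9 CPM in WT EBs. Slc34a2, a phosphate transporter among the nearest to Cdx2 (r = 0.94), likewise had high means in S2/3DKO and WT EBs, 5.07 and 4.02 CPM, and 0.156 CPM in S4KO EBs. Esx1, a placental homeobox gene near Elf5 (r = 0.96), was at 59.3 CPM in S2/3DKO EBs, 2.31 CPM in S4KO EBs and 2.21 CPM in WT EBs.

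Other regulators of the lineage were listed beside the 7 factors. Of 18, 11 were higher in S2/3DKO than in WT EBs and 1 was lower, with a median log2 fold change of 1.81. Of all genes tested, 7.21% were higher in this comparison. Pparg, a nuclear receptor of the labyrinth, was at 32.4 CPM in S2/3DKO EBs and 0.151 CPM in WT EBs (log2 7.73 ± 0.85). Its mean was under the filter's 0.198 CPM in every WT and S4KO group, so its call adds no support to the count of 11. Gata2 was at 129 CPM in S2/3DKO EBs and 1.10 CPM in WT EBs (log2 6.87 ± 0.51). Dlx3 was higher by 5.38 ± 0.74 and Gata3 by 5.37 ± 0.51 on the log2 scale. Eomes, a trophoblast stem cell factor that is also a nodal target of the primitive streak, was lower, at 6.54 CPM in S2/3DKO EBs, against 245 CPM in WT EBs (log2 -5.23 ± 0.29). At D0 Eomes averaged 6.03 CPM in S2/3DKO and 4.10 CPM in WT. Adjusted p-values of these 5 genes were at most 0.00103.

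Genes that work downstream in trophoblast cells were higher as well. Of 21 effector genes 16 were higher in S2/3DKO than in WT EBs and 0 lower, where 7.21% of all genes tested were higher. Their median log2 fold change was 3.68, also with genes at 0 in WT EBs set to their bound. Plac1 was higher by 7.21 ± 0.58, Lgals3 by 4.95 ± 0.37, Krt7 by 4.76 ± 0.76 and the imprinted Peg10 by 3.93 ± 0.35 on the log2 scale. Tpbpa, Prl3d1 and Prl2c2, made by the spongiotrophoblast and giant cells, had no counts in WT EBs and averaged 2.16, 4.08 and 2.26 CPM in S2/3DKO EBs. None of these had counts in any WT or S4KO library, so they passed the low-count filter only through the S2/3DKO libraries. Their calls add no support to the count of 16, and Prl2c2 may share reads with its near-identical family members. In S4KO EBs only Lgals3 of the 21 effector genes was higher than in WT (log2 1.61), and of the 18 other regulators only Eomes was called, at 14.01 CPM in S4KO EBs and 245 CPM in WT EBs. At an unadjusted p under 0.05, 8 of those 18 would pass there.

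**Figure D5:**
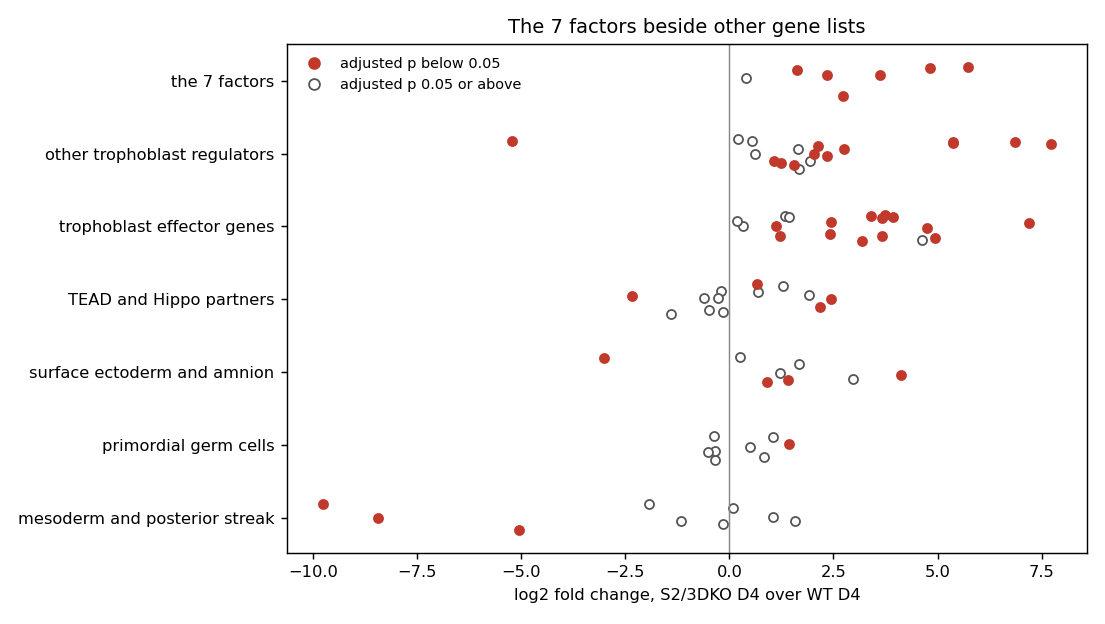
log2 fold change of S2/3DKO D4 over WT D4, from edgeR, for each gene of 7 lists that had counts in both groups. Red points passed an adjusted p of 0.05. The points of the 7 factors and of the trophoblast effector genes all lie right of 0, 1 regulator (Eomes, -5.23) lies to the left, and the mesoderm genes that passed lie to the left.

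Of 13 TEAD and Hippo partners, 3 were higher in S2/3DKO than in WT EBs, Vgll4, Tead3 and the coactivator gene Wwtr1, and Amot was lower. The median log2 fold change of the 13 was -0.16, and 7.21% of all genes tested were higher in this comparison. Wwtr1 lay just inside the threshold (edgeR, log2 0.67 ± 0.21, adjusted p = 0.0498). Vgll4, a cofactor that competes for TEAD proteins, was higher by 2.44 ± 0.41 and Tead3 by 2.17 ± 0.46 on the log2 scale, while Amot, which binds Yap1, was lower by 2.33 ± 0.47. Yap1 was at 227 CPM in S2/3DKO EBs and 317 CPM in WT EBs (adjusted p = 0.142). Of 8 paralogs of the factors, 5 were tested and Elf3 alone was higher, while Tfap2b and Tfap2d had no counts in S2/3DKO or WT EBs.

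Because several factors are shared with other lineages, marker lists of those were read beside them. In S2/3DKO against WT EBs, 2842 of the 18693 genes tested were called in either direction, and 7.21% were higher. Of 12 mesoderm and posterior streak genes, where Cdx2 and Hand1 also act, 11 were tested. Of these, T, Mixl1, Evx1, Mesp1 and Hoxb1 were lower in S2/3DKO than in WT EBs. The list summed to 16.97 to 20.3 CPM in S2/3DKO EBs and 179 to 208 CPM in WT EBs, with Mesp1 and Hoxb1 at 0 in S2/3DKO EBs. Of 9 surface ectoderm and amnion genes, where Tfap2a acts, 4 were higher, Trp63, Wnt6, Grhl2 and Grhl3, and Igfbp3 was lower. Trp63 had no counts in WT EBs and averaged 0.673 CPM in S2/3DKO EBs. The median log2 fold change of the 9 was 1.40, but their sum was 126 to 149 CPM in S2/3DKO EBs and 199 to 205 CPM in WT EBs, of which Igfbp3 alone averaged 17.8 CPM in S2/3DKO EBs and 144 CPM in WT EBs, while Krt5 and Krt14 averaged 0.279 and 0.982 CPM in S2/3DKO EBs. Of 8 primordial germ cell genes, where Tfap2c acts, only Dppa3 was higher, and the sums overlapped, 125 to 156 CPM in S2/3DKO EBs and 135 to 141 CPM in WT EBs. Effector genes of the trophoblast summed to 10765 to 16255 CPM in S2/3DKO EBs and 1315 to 1383 CPM in WT EBs, mostly Peg10. The part of each cell type in the levels of the 7 factors was not tested.

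The nearest tested protein-coding neighbours of the factors were looked up after the first results. Tspan32, 35782 bases from Ascl2 on mouse chromosome 7, was higher in S2/3DKO than in WT EBs by 2.50 ± 0.42 (log2, adjusted p = 0.00288) and in undifferentiated cells by 2.06 ± 0.38 (adjusted p = 0.00371). Th, on the other side of Ascl2, had no counts in WT EBs and averaged 0.476 CPM in S2/3DKO EBs. Flt3, beside Cdx2, was higher in S2/3DKO than in WT ES cells by 4.67 ± 1.33 (adjusted p = 0.0221) and not called in EBs (adjusted p = 0.129). Cat, 2860 bases from Elf5, was at 78.0 CPM in S2/3DKO EBs and 92.1 CPM in WT EBs (adjusted p = 0.477). Neither neighbour of Hand1, Tfap2c or Tfap2a was called in EBs. In undifferentiated cells Sap30l, beside Hand1, was lower in S2/3DKO, at 21.8 CPM, than in WT, at 59.6 CPM (log2 -1.45 ± 0.34, adjusted p = 0.00970), and Rtf2, beside Tfap2c, was lower in S2/3DKO, at 69.8 CPM, than in WT, at 126 CPM (log2 -0.86 ± 0.22, adjusted p = 0.0145). Tulp3, beside Tead4, was lower in S2/3DKO than in WT EBs (log2 -0.65 ± 0.20, adjusted p = 0.0493).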

How the data were processed

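The authors deposited whole-number counts per Ensembl gene ID and FPKM values per gene symbol for the 12 libraries, with no library pooled. Per the labels' protocols, total RNA (500 ng) went into TruSeq v2 libraries. The submitters' processing notes name Cufflinks, StringTie, DESeq2 and build mm10 but give no versions or roles, and the aligner, annotation and strand setting are not given in the sources used here. Values of 1 (4966) were rarer than values of 2 (6989) in the deposited counts, so these need not be direct tallies of reads. Symbols and positions came from GENCODE M21 (GRCm38), which named 32158 of the 32285 IDs, and 31415 symbols occur in both tables.

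Libraries were grouped by the genotype, day and replicate in their titles. Replicates of a group correlated at r = 0.966 to 0.988 and none were copies. After edgeR's filterByExpr, 18693 genes were fitted in 1 model with 6 groups (edgeR 4.0.16 in R 4.3.3, TMM scaling, quasi-likelihood test, Benjamini-Hochberg adjustment over all genes, common biological coefficient of variation 0.286), a step tested on simulated data. Alternatives were RLE scaling, DESeq2 1.42.0, limma 3.58.1 on log2(FPKM + 1) and log2(FPKM + 0.1), other filters, a minimum absolute log2 fold change of 1, the replicate number as a block, a length and GC correction, only the groups compared, and each library left out. Genes named were the 7 factors, for each the 3 genes nearest by Pearson r of log2 CPM, and up to 4 called genes of each list with the largest change and at least 5 CPM in a group. Further genes were named after their values were seen: neighbours on the chromosome, Hprt, Eif2s3y, Xist, Mid1, Pou5f1, Yap1, and genes at 0 or in short lists. The factors, lists and tests were chosen with earlier results of these data known. Intervals and counts of 0 cover counting and replicate error only.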

Additional observations from a re-analysis of the deposited data

Results flagged for a closer look

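Tfap2c changed in opposite directions over the 4 days in 2 genotypes, and the difference between the changes passed a test of its own. The S2/3DKO change minus the WT change was 1.96 ± 0.34 (log2, SE; edgeR's quasi-likelihood test, adjusted p = 0.0166). Mean levels were 193 CPM at D4 and 99.6 CPM at D0 in S2/3DKO, and 28.9 CPM at D4 and 58.1 CPM at D0 in WT, with both libraries of each group showing the direction. The direction was the same under all 23 alternatives, with values between 1.75 and 2.19, and the adjusted p reached 0.118.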

How the results depend on the processing

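Each value of the 7 factors in the 11 comparisons was recomputed under 23 alternatives, giving 1742 values. No called value changed sign. The call was unchanged in 1600 values, lost in 65 and gained in 77, and 41 values without a call in either fit changed sign. In S2/3DKO against WT EBs, Tfap2c, Hand1, Ascl2 and Elf5 were called under every alternative.

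The number of factors called moved as follows. With a minimum absolute log2 fold change of 1 it was 0 in S2/3DKO D0 against WT D0, S4KO D4 against WT D4, S4KO D0 against S2/3DKO D0, D4 against D0 in both knockouts, and the S2/3DKO change minus the WT change, 1 in WT D4 against D0, 3 in S4KO D4 against S2/3DKO D4, and 4 in S2/3DKO D4 against WT D4, where Tfap2a and Tead4 lost their calls. For S2/3DKO D0 against WT D0 (4 called) it was 6, all but Tfap2a, with the length and GC correction. For WT D4 against D0 (3 called) it was 4, with Ascl2 gained, with a minimum of 1 CPM, no filter, RLE, DESeq2 or only the groups compared. For S4KO D0 against S2/3DKO D0 (1 called) it was 3 with a minimum of 1 CPM, 4 with no filter, DESeq2 or the length and GC correction, 2 with log2(FPKM + 0.1) or log2(FPKM + 1) unfiltered, and 0 with only the groups compared. For S2/3DKO D4 against D0 (1 called) it was 2 with a minimum of 1 CPM, no filter, RLE, log2(FPKM + 0.1), the length and GC correction or only the groups compared, and 3 with log2(FPKM + 1), filtered or not. For S4KO D4 against WT D4 (1 called) it was 2 with no filter, DESeq2, log2(FPKM + 1) unfiltered or the length and GC correction, and 0 with only the groups compared. For the S2/3DKO change minus the WT change (1 called) it was 2 with no filter or log2(FPKM + 0.1), 3 with DESeq2 or log2(FPKM + 1) unfiltered, and 4 with log2(FPKM + 1). It was 1 for the S4KO change minus the WT change with no filter or DESeq2, 1 for S4KO D0 against WT D0 with the length and GC correction, and 0 for S4KO D4 against D0 with only the groups compared. The causes were not tested.

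Leaving out 1 library at a time gave 0 to 5 called factors in S2/3DKO D0 against WT D0, 5 to 6 in S2/3DKO D4 against WT D4, 0 to 1 in S4KO against WT on either day, 1 to 2 in S4KO D0 against S2/3DKO D0, 3 to 7 in S4KO D4 against S2/3DKO D4, 2 to 4 in WT D4 against D0, 0 to 2 in S2/3DKO D4 against D0 and in S4KO D4 against D0, 0 to 3 for the S2/3DKO change minus the WT change and 0 to 1 for the S4KO change minus the WT change.

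The replicate number did not pair the libraries: same-numbered libraries deviated together at r = -0.147 to 0.339 over 15 pairs of groups. With the replicate block the number of called factors was 2 in S2/3DKO D4 against D0 and unchanged in the other 10 comparisons. Depth limits Cdx2 and Elf5 most, with under 10 counts in most S4KO and WT libraries.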

Other observations

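Gene lists of other states were read over the same libraries. Of 7 genes typical of 2-cell embryos, 5 were higher in S2/3DKO than in WT ES cells by edgeR, where 16.7% of all genes tested were higher. These were Zscan4c, Zscan4d, Usp17la, Usp17lc and Tcstv3, which share reads with near-identical copies and are uncertain. None of the 7 was called in EBs, and 0 had an unadjusted p under 0.05 there. Of 11 pluripotency genes, Tfcp2l1 was higher and Pou5f1, Nanog, Fgf5 and Otx2 were lower in S2/3DKO than in WT EBs, with summed levels of 941 to 1186 CPM in S2/3DKO EBs and 1776 to 2481 CPM in WT EBs. Of 12 extraembryonic endoderm genes, 10 were lower in S4KO than in WT EBs, where 1.73% of all genes tested were called in either direction. Their sums were 167 to 240 CPM in S4KO EBs and 1138 to 1344 CPM in WT EBs. In S2/3DKO EBs, 5 of the 12 were lower than in WT EBs, Gata4, Foxa2, Cubn, Amn and Dab2. Of 6 fibroblast genes tested, Postn was higher and Thy1 and Dcn were lower in S2/3DKO than in WT EBs, and the sums of the list stayed at or below 29.2 CPM in all 12 libraries.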
